A study of Homo sapiens with 8 samples.

Results

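The 2 control states of a DNp63 expression experiment in LK2, an established human lung squamous cell carcinoma line, were compared with each other: cells carrying an inducible DNp63 vector that was left uninduced, and cells carrying a vector for green fluorescent protein (GFP). The libraries were assigned by their labels, and the comparison was chosen with earlier results of these data known. They make up 4 of the 8 libraries, 2 per state. The GFP cells had the genotype pLEX_306-GFP in replicate 1 and pLEX_307-GFP in replicate 2, with no drug treatment or culture time given for them. The uninduced cells had the genotype pLIX_403-DNp63 in both replicates and were kept 6 days without doxycycline (0 µg/ml). All 8 libraries came from LK2 cells that carried a vector, and an untransduced group was not analysed here. The other libraries were constitutive DNp63 cells (pLEX_306-DNp63 and pLEX_307-DNp63) and induced cells (pLIX_403-DNp63 with doxycycline at 2 µg/ml for 6 days). Vector backbone, GFP and the DNp63 insert all differed between the 2 control states at once, and so may have the culture, so their parts in any difference cannot be told apart. Whether the paired libraries of a state stem from separate infections or cultures, whether a line was 1 clone and which promoter drove GFP are not in the labels. The p-values below rest on the spread within groups, over all 8 libraries unless stated, and that spread may be technical. In the GFP and constitutive DNp63 groups it also holds the difference between pLEX_306 and pLEX_307.

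DNp63 is p63 without its N-terminal activation domain. It is the main p63 form, a transcription factor, of basal and squamous epithelium, and shares its DNA-binding domain with the tumour suppressor p53. p53 switches on genes for cell cycle arrest, DNA repair and cell death, and is itself held down by MDM2, the ubiquitin ligase that p53 induces. A doxycycline-controlled promoter is meant to be silent without the drug, but some transcription often remains.

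Total counts were 2758158 and 4819186 in the GFP libraries and 5067659 and 10372248 in the uninduced libraries, and spanned 2758158 to 10372248 over all 8. Of 26760 genes in the table, 12303 had enough counts to be tested. A count of 3, the floor used for genes at 0, corresponds to 0.289 to 1.09 CPM in a single library, where CPM is the count scaled to a common library size. The 2 GFP libraries were less alike than the 2 uninduced ones: the SD over genes of the log2 difference between libraries was 0.71 for the GFP pair and 0.36 for the uninduced pair, against 0.56 to 0.70 for a GFP and an uninduced library. Among markers of the line, KRT8, KRT18, EPCAM and CDH1 were at 151 to 2541 CPM in the 4 control libraries. The basal keratin KRT5 was at or below 0.635 CPM, and KRT14 was at 0 in all 8 libraries, so the basal keratins that define squamous epithelium were at or near 0 in the control cells. KRT6A, a keratin of stressed squamous epithelium, was at 2.22 to 5.93 CPM. Fibroblast markers summed to 16.2 to 21.4 CPM in the 4 control libraries, with 6 of 11 at 0 there. Immune and endothelial markers summed to 4.28 to 5.54 CPM, with 10 of 17 at 0. Markers of other lung epithelial cells summed to 161 and 304 CPM with GFP and 216 and 201 CPM uninduced, with 9 of 20 at 0 in the 4 libraries.

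The first question was which genes differ between the 2 control states. MDM2 fell in uninduced cells, and it was the one gene called at an adjusted p under 0.05 (edgeR's quasi-likelihood test Benjamini-Hochberg adjusted over the 12303 genes). It was at 199 and 117 CPM with GFP and at 27.0 and 25.9 CPM uninduced. Both uninduced libraries lay far below both GFP libraries. The log2 difference was −2.58 ± 0.30 (SE), a 5.97-fold lower level, with an edgeR adjusted p of 0.0418. Constitutive DNp63 cells had 79.4 and 59.5 CPM and induced cells 28.8 and 20.3 CPM, so the 4 libraries of the inducible vector were the lowest of the 8. The call was lost when any of the 4 inducible-vector libraries was left out (adjusted p from 0.209 without an induced library to 1.00 without uninduced replicate 2), in a fit of the 4 control libraries alone (adjusted p = 0.187) and with a minimum count of 50 (adjusted p = 0.0655). Over the refits without 1 library the log2 difference lay between −2.91 and −2.15.

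Called genes made up 0.00813% of the tested genes on the lower side and 0% on the higher side. At an unadjusted p under 0.05, 464 genes (3.77%) were higher and 656 (5.33%) lower uninduced. Both uninduced libraries lay above both GFP libraries for 2707 genes (22.0% of those tested) and below them for 2694 (21.9%). A term for the vector number takes up the difference between pLEX_306 and pLEX_307 that the GFP and constitutive DNp63 libraries share. With it, 27 genes (0.219%) were called higher and 77 (0.626%) lower. DESeq2 called 13 genes higher and 44 lower without that term. The median log2 difference over all tested genes was −0.01.

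TP63 was the second question, since a vector that leaks would show there. Its transcript was at 0.739 and 1.91 CPM with GFP and at 12.7 and 14.8 CPM uninduced. Both uninduced libraries stood above both GFP libraries, and the GFP values came from 2 and 9 counts against 63 and 152. The means were 1.32 ± 0.825 CPM (SD, n = 2) with GFP and 13.7 ± 1.48 CPM uninduced, 10.4 times as high. The log2 difference was 3.23 ± 0.50, with an edgeR adjusted p of 0.165 that did not pass the threshold. It passed with the vector number term (adjusted p = 0.000193), with the replicate block over 8 libraries (adjusted p = 0.0424), without a filter on low counts, with DESeq2 (adjusted p = 1.37e-05) and when either constitutive DNp63 library, where TP63 was at 1850.1 and 3816 CPM, was left out (adjusted p of 0.00826 and 0.00686). It did not pass in the 4 control libraries alone (adjusted p = 0.187, and 0.31 with the replicate block), at a minimum count of 50 (adjusted p = 0.196) or when any GFP, uninduced or induced library was left out. The fit without a filter took each gene's spread from a common trend alone, so its result is not comparable with the others. Induced cells had 412 and 422 CPM. The uninduced mean was therefore 3.29% of the induced mean and 0.485% of the constitutive mean. The counts are per gene, so the forms of p63 cannot be told apart in them. Nor can transcripts of the vector be told from those of the cells' own TP63 gene, so a leak was not tested.

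Genes reported as direct p63 targets were looked at as a list beside TP63. Of 35 tested, 4 (11.4%) were above GFP in both uninduced libraries and 12 (34.3%) were below, against 22.0% and 21.9% of all tested genes. Their median log2 difference was −0.36, and none was called. EDAR, the ectodysplasin receptor of skin appendages, was at 4.06 and 0.847 CPM with GFP and at 9.46 and 12.2 CPM uninduced. The groups did not overlap, and the log2 difference was 2.37 ± 0.67 with an edgeR adjusted p of 0.319. In the cells meant to express DNp63, EDAR was at 104 and 283 CPM (constitutive) and 92.8 and 98.4 CPM (induced). ITGA3, an integrin subunit of the basal surface, was at 18.8 and 11.4 CPM with GFP and at 23.6 and 21.7 CPM uninduced. DLX5, a homeobox factor, was at 447 and 690 CPM with GFP and 947 and 789 CPM uninduced, and RAB38 was the other member above GFP in both libraries. ITGA3, DLX5 and RAB38 were chosen here after their values were seen. On the other side, CYP24A1, the enzyme that breaks down active vitamin D, was at 35.8 and 47.2 CPM with GFP and 18.5 and 24.2 CPM uninduced. DST, which encodes the hemidesmosome plakin BPAG1, was at 84.6 and 153 CPM with GFP and 64.0 and 65.0 CPM uninduced. The log2 differences of CYP24A1 and DST were −0.96 and −0.89, and neither passed (adjusted p of 0.319 and 0.339). Squamous and basal markers showed 0 of 16 tested members above and 5 (31.2%) below GFP, against the same shares of all genes, with a median of −0.48. Genes were kept for testing by their counts over all 4 groups, so some members were near 0 counts in the control libraries. KRT5, in both lists, had 1 and 3 counts with GFP and 1 and 0 uninduced. The marker PKP1 had 3 and 3 against 0 and 2. The shares and medians of both lists are therefore not read as a result about their members. DSC3, a desmosomal cadherin, was at 54.3 and 45.5 CPM with GFP and 24.2 and 25.4 CPM uninduced, a 2.01-fold lower level (adjusted p = 0.263).

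SOX2, the lineage factor of squamous lung tumours, was at 278 and 517 CPM with GFP and 575 and 537 CPM uninduced. The uninduced libraries were only just above GFP replicate 2, and the log2 difference of 0.48 ± 0.28 did not pass (edgeR adjusted p = 0.647). NES, the neural progenitor filament nestin, was at 12.2 and 9.32 CPM with GFP and 30.6 and 28.0 CPM uninduced, with a log2 difference of 1.46 ± 0.36 (adjusted p = 0.274). TP73, the other p53 relative, was at 5.54 and 7.20 CPM with GFP and 13.7 and 14.1 CPM uninduced, a log2 difference of 1.10 ± 0.31 (adjusted p = 0.319). POU3F2, a neural transcription factor, was at 41.4 and 120 CPM with GFP and 55.7 and 47.2 CPM uninduced, so the groups overlapped. Its log2 difference was −0.67 and turned to 0.31 without GFP replicate 2.

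Of the lists with at least 10 tested members, the p53 target genes had the highest share below GFP. Of 30 tested, 26 (86.7%) were lower in both uninduced libraries than in both GFP libraries, against 21.9% of all tested genes, and 1, BTG2, was higher. At an unadjusted p under 0.05, 23 were lower and 0 higher, where 5.33% and 3.77% of all genes were. Their median log2 difference was −1.20, against −0.01 over all genes. MDM2 was the 1 member called, and 12 were called lower with the vector number term, against 0.626% of all genes. The members summed to 4559 and 3038 CPM with GFP and to 1921 and 1881 CPM uninduced. The size rested partly on GFP replicate 1: the median was −0.85 without it and −1.58 without GFP replicate 2.

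For 4 of the 24 p53 targets found in the RefSeq promoter table (build GRCh38.p14), the 250 bases before a start site hold a match on either strand to the p53 decamer, the unit that is paired in a full p53 response element. The stretches below are shown because these members lay below GFP in both uninduced libraries at an unadjusted p under 0.05. Their capitals mark the match. They are the 70 bases at chr10:88991279-88991348 (plus strand), chr6:109008998-109009067 (minus strand), chr15:88621270-88621339 (plus strand) and chr17:74872995-74873064 (minus strand).
FAS: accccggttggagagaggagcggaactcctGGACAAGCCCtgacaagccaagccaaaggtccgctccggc
SESN1: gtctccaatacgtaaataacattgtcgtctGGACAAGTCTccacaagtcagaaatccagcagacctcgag
AEN: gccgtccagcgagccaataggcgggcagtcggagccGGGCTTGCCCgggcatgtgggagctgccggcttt
FDXR: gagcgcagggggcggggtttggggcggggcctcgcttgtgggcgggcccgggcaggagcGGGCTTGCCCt
A match was found in 4 of 36 windows of the p53 targets (11.1%), in 5.57% of all 35116 windows, and in 10.3% of the windows of the replication genes described below, which lay on the other side. The windows were not matched on base composition, and a match is a description of the letters.

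FAS, the death receptor, was at 7.39 and 8.47 CPM with GFP and at 1.61 and 1.94 CPM uninduced, with a log2 difference of −2.13 ± 0.47 (edgeR adjusted p = 0.254). SESN1, which restrains mTORC1 signalling, was at 24.4 and 14.6 CPM with GFP and 3.82 and 5.64 CPM uninduced (log2 difference −1.99, adjusted p = 0.242). FDXR, the mitochondrial ferredoxin reductase, was at 39.2 and 115 CPM with GFP and 24.1 and 22.3 CPM uninduced, and AEN, a nuclease, at 316 and 145 against 113 and 101 CPM. None of these 4 passed, though their 2 states did not overlap. In constitutive DNp63 cells FAS was at 2.00 and 1.94 CPM and FDXR at 17.7 and 24.8 CPM, close to the uninduced values, so not every member was high in all cells without the inducible vector. FAS, SESN1, AEN, FDXR and the p53 targets named in the next paragraph, apart from TIGAR and TNFRSF10B, were not named by the rule given below. They were added with values of these data already seen.

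TIGAR, a regulator of glycolysis, was at 28.5 and 27.1 CPM with GFP and at 4.43 and 7.58 CPM uninduced. The 2 GFP libraries were alike and both uninduced ones were several times lower, with a log2 difference of −2.16 ± 0.34 (edgeR adjusted p = 0.165). TNFRSF10B, the TRAIL death receptor DR5, was at 337 and 199 CPM with GFP and 96.6 and 104 CPM uninduced (log2 difference −1.41 ± 0.24, adjusted p = 0.165). CDKN1A, which encodes the p21 inhibitor of cyclin-dependent kinases, was at 1147 and 569 CPM with GFP and 378 and 373 CPM uninduced. Its log2 difference was −1.19 ± 0.29 (adjusted p = 0.274), and −0.60 without GFP replicate 1. EDA2R, a second ectodysplasin receptor, was at 13.7 and 10.4 CPM with GFP and 1.61 and 0.486 CPM uninduced, the largest fitted log2 difference of the list at −3.66 ± 0.76. GDF15, a stress-induced hormone, was at 177 and 51.0 CPM with GFP and 28.4 and 21.1 CPM uninduced. BBC3, the BH3-only death factor PUMA, was at 120 and 46.0 CPM with GFP and 30.8 and 30.3 CPM uninduced. In GDF15, BBC3 and CDKN1A the 2 GFP libraries were far apart and the 2 uninduced ones close together. SESN2, BAX and CCNG1 were the members whose states overlapped. BAX, the pore-forming death effector, was at 42.5 and 107 CPM with GFP and 47.7 and 45.0 CPM uninduced. BTG2, an antiproliferative gene, went the other way, with 75.0 and 45.1 CPM with GFP and 113 and 92.5 CPM uninduced (log2 difference 0.79, adjusted p = 0.56).

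**Figure D1:**
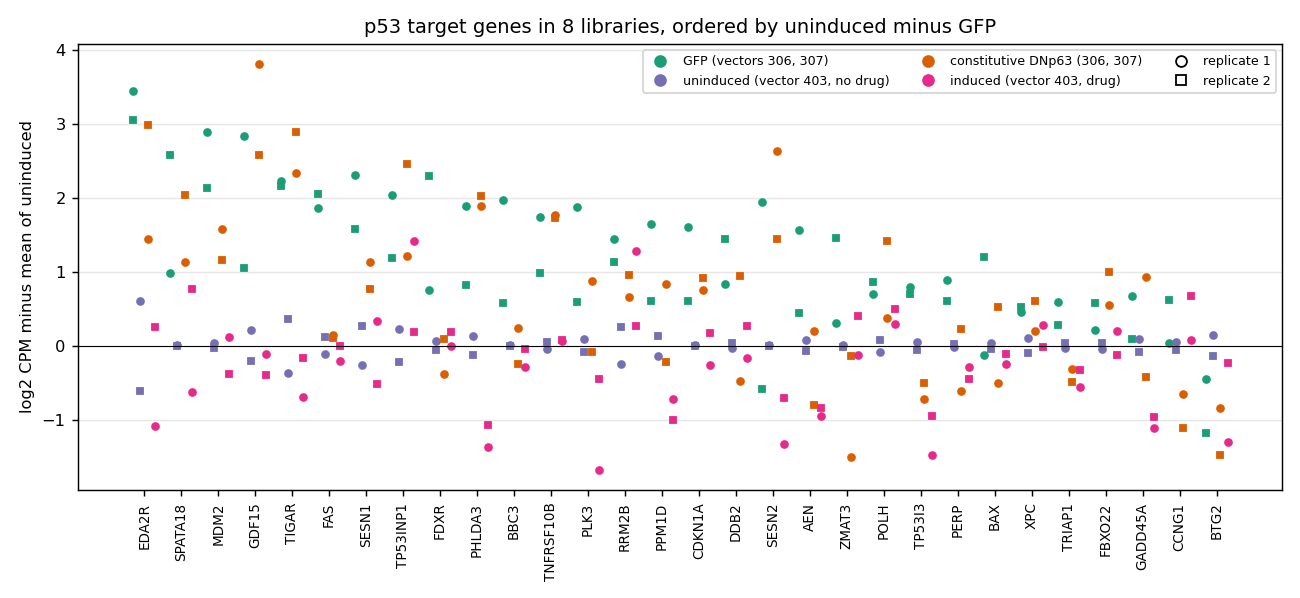
Log2 CPM of the 30 p53 target genes in each of the 8 libraries, minus the mean of the 2 uninduced libraries (vertical axis), with genes ordered by the fitted uninduced minus GFP difference. Colours are the 4 groups, circles replicate 1 and squares replicate 2. Both GFP points lie above both uninduced points for 26 genes, and both lie below them for BTG2 at the right end.

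The induced and constitutive DNp63 cells use the same 2 kinds of vector and share no library with the 2 control states. This comparison was added after the p53 targets had been seen. The p53 targets had a median log2 difference of −0.71 between induced and constitutive cells, with 17 of 30 lower without overlap and 2 higher, where 28.6% and 28.0% of all genes were. Relative to the uninduced mean, the median member was at 1.50 and 0.84 in the GFP libraries, 0.60 and 0.69 in the constitutive DNp63 libraries and −0.26 and −0.12 in the induced libraries, on the log2 CPM scale. TIGAR was at 30.9 and 45.4 CPM in constitutive against 3.46 and 5.11 CPM in induced cells, and TNFRSF10B at 342 and 333 against 104 and 105 CPM. Across all genes, 915 of the 1120 with an unadjusted p under 0.05 between the control states (81.7%) had the same sign between induced and constitutive cells, against 7813 of all 12303 (63.5%). Averaging both comparisons in 1 contrast of inducible minus constitutive vectors, also added later, called 463 genes higher (3.76%) and 545 lower (4.43%), and 11 of 30 p53 targets lower. Vector kind, cell population and the amount of DNp63 cannot be told apart in that contrast.

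Genes for DNA replication and S phase lay on the other side. Of 34 tested, 24 (70.6%) were above GFP in both uninduced libraries, against 22.0% of all genes, and 0 were below. At an unadjusted p under 0.05, 18 were higher, and 0 were called (1, MCM4, with the vector number term). The median log2 difference was 0.66, and the members summed to 3585 and 4605 CPM with GFP and to 6096 and 6053 CPM uninduced. In bulk RNA, more cells in S phase and more of these transcripts per cell in the uninduced state cannot be told apart. The median was 0.44 without GFP replicate 1 and 0.92 without GFP replicate 2.

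Letters bound by E2F factors, which drive S-phase genes, were looked for as TTTCCCGC, TTTCGCGC, TTTGCCGC or TTTGGCGC on either strand in the same 250 bases, and 13 of the 29 replication genes in the RefSeq table had a match. The 5 below are shown because they were above GFP in both uninduced libraries at an unadjusted p under 0.05. Members on some chromosomes were left out of this choice whatever their letters or values. Capitals mark the matches, which overlap in MCM6. They are the 70 bases at chr6:52284878-52284947, chr2:135876557-135876626, chr20:5126643-5126712, chr16:85688955-85689024 and chr20:33686386-33686455 of GRCh38.p14, all on the minus strand.
MCM3: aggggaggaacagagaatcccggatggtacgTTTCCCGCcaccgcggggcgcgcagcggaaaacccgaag
MCM6: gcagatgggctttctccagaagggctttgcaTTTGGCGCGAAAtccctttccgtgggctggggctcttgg
PCNA: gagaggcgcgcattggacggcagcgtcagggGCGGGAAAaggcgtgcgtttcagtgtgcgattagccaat
GINS2: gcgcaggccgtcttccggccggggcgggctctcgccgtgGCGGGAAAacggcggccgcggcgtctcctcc
E2F1: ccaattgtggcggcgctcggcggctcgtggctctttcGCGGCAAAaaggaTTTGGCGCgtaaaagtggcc
A match was in 14 of 39 windows of the replication genes (35.9%), in 2.79% of all 35116 windows and in 11.1% of those of the p53 targets.

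MCM4, a subunit of the replicative helicase, was at 345 and 456 CPM with GFP and at 719.9 and 729 CPM uninduced, with a log2 difference of 0.85 ± 0.19 (edgeR adjusted p = 0.254). MCM3 was at 288 and 340.3 CPM with GFP and 501 and 519 CPM uninduced, and MCM6 at 188 and 174 against 238 and 260.2 CPM, so the helicase subunits shown were above GFP in both libraries. PCNA, the sliding clamp, was at 54.7 and 71.2 CPM with GFP and 113 and 101 CPM uninduced. GINS2, part of the same helicase, was at 27.3 and 39.6 CPM with GFP and 65.2 and 69.2 CPM uninduced. TK1, thymidine kinase, was at 73.5 and 109 CPM with GFP and 207 and 190.3 CPM uninduced, a log2 difference of 1.11 ± 0.25 (adjusted p = 0.254). E2F1 was at 29.9 and 34.3 CPM with GFP and 61.8 and 63.9 CPM uninduced (log2 difference 0.96, adjusted p = 0.272). TYMS, thymidylate synthase, was at 66.5 and 145 CPM with GFP and 109 and 102 CPM uninduced, so its states overlapped. MCM3, MCM6, PCNA, GINS2 and TYMS were named after their values were seen.

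The replication genes were not high in every cell with the inducible vector. Relative to the uninduced mean, the median member was at −0.91 and −0.43 with GFP, −0.73 and −0.63 in induced cells and −1.13 and −1.27 in constitutive DNp63 cells, so the 2 uninduced libraries were the highest of the 8. Induced minus constitutive gave a median of 0.55. Genes of G2 and mitosis showed no such shift: 0 of 29 were above GFP and 2 (6.90%) below, CCNB2 and CENPA. Of all tested genes, 22.0% were above and 21.9% below. The median of the G2 and mitosis genes was −0.02, with GFP replicates 1 and 2 on opposite sides of the uninduced mean (−0.32 and 0.33). PLK1, a mitotic kinase, was at 190 and 318 CPM with GFP and 197 and 191 CPM uninduced. CENPA, the centromeric histone, was at 21.1 and 27.7 CPM with GFP and 15.7 and 14.9 CPM uninduced.

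**Figure D2:**
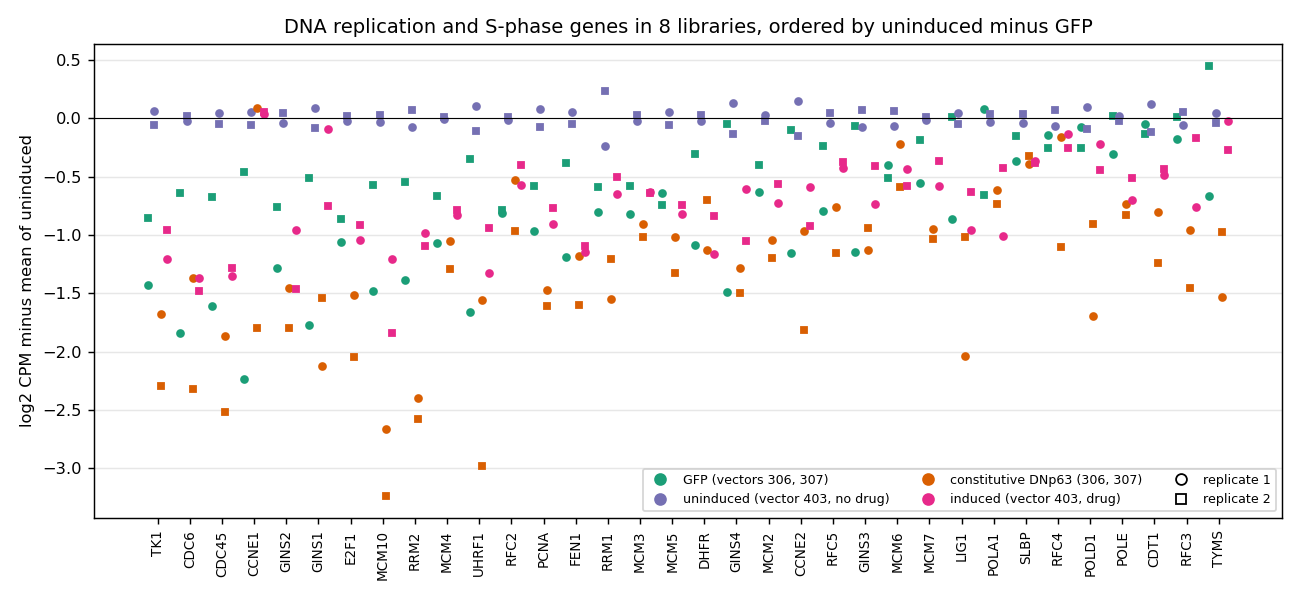
Log2 CPM of the 34 replication and S-phase genes in each of the 8 libraries, minus the mean of the 2 uninduced libraries (vertical axis), ordered by the fitted uninduced minus GFP difference. Colours are the 4 groups, circles replicate 1 and squares replicate 2. Both GFP points lie below both uninduced points for 24 genes, and most of the other libraries lie below 0 too.

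Among all genes above a mean of 5 CPM, the 10 with the smallest p in each direction were taken by rule, and apart from MDM2 none of them passed the adjusted threshold. With the vector number term all of them passed, from an edgeR adjusted p of 0.000151 for MDM2 to 0.0318 for CRABP2. They were picked for a small p in the same libraries, so their passing there is no separate support. HSPA8, the constitutive cytosolic HSP70 chaperone, was the most abundant, at 852 and 818 CPM with GFP and 1522 and 2057 CPM uninduced, a log2 difference of 1.10 ± 0.21 (edgeR adjusted p = 0.197). MAGEA1, a cancer-testis antigen normally silent outside the germ line, was at 0.369 and 1.48 CPM with GFP and 12.3 and 11.4 CPM uninduced, a log2 difference of 3.47 ± 0.69 (adjusted p = 0.242). In the other cells MAGEA1 was at 0.286 and 2.72 CPM (constitutive) and 7.66 and 9.44 CPM (induced), so the 4 inducible-vector libraries were the highest. GNG4, a G protein gamma subunit, was at 45.1 and 55.7 CPM with GFP and 111 and 101 CPM uninduced, and ABHD14B at 20.7 and 21.8 against 50.1 and 48.8 CPM. EIF4A2, a translation initiation helicase, was at 128 and 139 CPM with GFP and 224 and 257 CPM uninduced.

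PTGR1, a reductase of prostaglandin and leukotriene metabolites, was at 123 and 189 CPM with GFP and 360 and 390 CPM uninduced, a log2 difference of 1.26 ± 0.22 (edgeR adjusted p = 0.165). CRABP2, which carries retinoic acid, was at 25.5 and 18.6 CPM with GFP and 56.1 and 57.7 CPM uninduced. PTGR1, CRABP2 and PRR36 were low in the GFP cells alone: in the other 6 libraries they were at 359 to 484, 56.1 to 145 and 22.6 to 36.4 CPM. FN3KRP, a kinase that repairs glycated proteins, was at 48.8 and 55.3 CPM with GFP and 103 and 99.7 CPM uninduced. It was at 42.0 and 55.7 CPM in constitutive DNp63 cells and 76.6 and 86.2 CPM in induced cells, so both vector kinds kept to their side.

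On the lower side, MDM2, TIGAR and TNFRSF10B are members of the p53 target list described above. PIDD1, the p53-induced death-domain protein, is in no list used here and was at 71.7 and 65.6 CPM with GFP and 28.4 and 25.4 CPM uninduced, with a log2 difference of −1.35 ± 0.24 (edgeR adjusted p = 0.165). GDNF, a neurotrophic growth factor, was at 5.17 and 12.7 CPM with GFP and 1.01 and 1.17 CPM uninduced, a log2 difference of −3.05 ± 0.50 (adjusted p = 0.165). It was at 53.1 and 40.2 CPM in constitutive DNp63 cells and 1.11 and 1.97 CPM in induced cells. All 4 libraries of the inducible vector were thus below the 4 others. JUN, an AP-1 subunit, was at 313 and 361 CPM with GFP and 156 and 146 CPM uninduced, a log2 difference of −1.16 ± 0.20 (adjusted p = 0.165). JUN was at 109 to 186 CPM in the remaining 4 libraries, so it was high in the GFP cells alone. RGMA, a repulsive guidance molecule, was likewise at 28.8 and 30.1 CPM with GFP and at 6.55 to 9.86 CPM in the other 6 libraries. MALAT1, an abundant nuclear long noncoding RNA, was at 132 and 177 CPM with GFP and 57.0 and 66.1 CPM uninduced, and LCAL1, another long noncoding RNA, at 78.7 and 68.8 against 24.4 and 27.1 CPM. TRIB1, a pseudokinase, was at 34.0 and 36.8 CPM with GFP and 14.3 and 14.2 CPM uninduced.

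**Figure D3:**
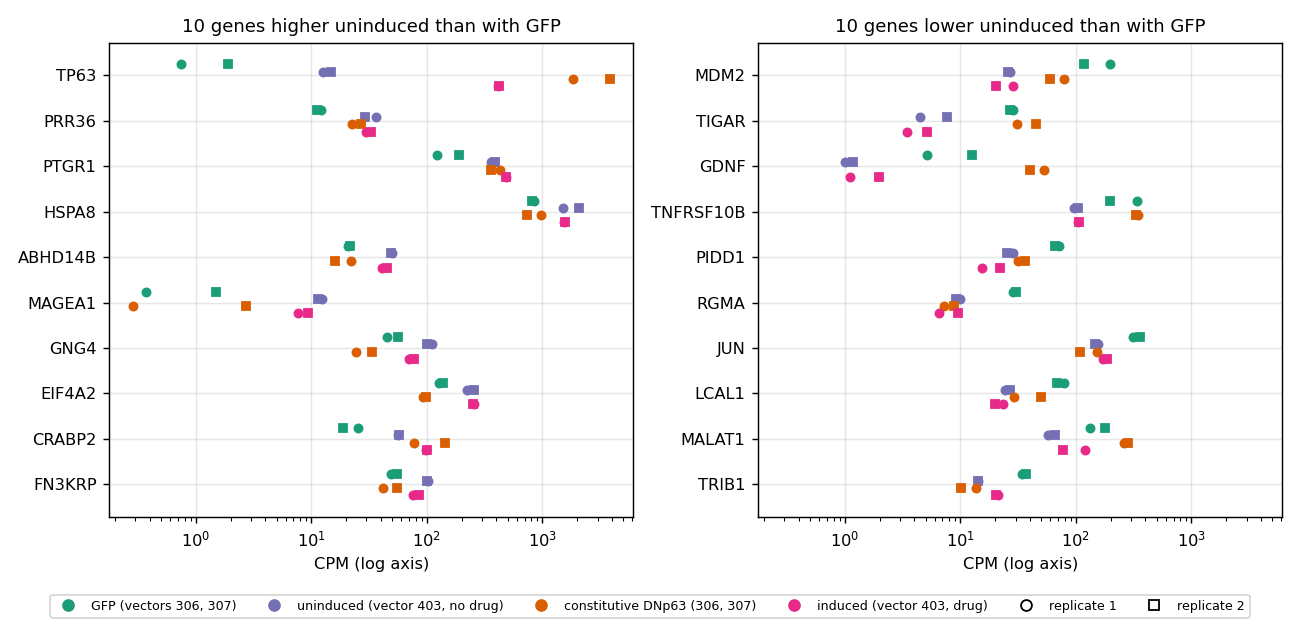
CPM on a log axis of the 10 genes with the smallest p in each direction, in each of the 8 libraries. Colours are the 4 groups, circles replicate 1 and squares replicate 2. In MDM2, TIGAR, GDNF and MAGEA1 the 4 libraries of the inducible vector lie on 1 side of the 4 others, while JUN and RGMA are high with GFP alone.

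Genes of the ATF4 stress response, which is switched on by amino acid shortage and misfolded protein, separated the 2 GFP libraries rather than the 2 states. Relative to the uninduced mean, their median was 1.03 in GFP replicate 1 and −0.17 in GFP replicate 2. Of 40 tested members, 9 (22.5%) were below GFP in both uninduced libraries, near the 21.9% of all tested genes, and 0 were above, where 22.0% of all genes were. The median difference between the states was −0.52, and 0.19 without GFP replicate 1. TRIB3, a pseudokinase target of ATF4, was at 408 and 46.2 CPM with GFP and 49.5 and 52.3 CPM uninduced, and its log2 difference of −2.14 turned to 0.14 without GFP replicate 1. Chaperones of the endoplasmic reticulum showed the same split, with a median of 0.75 in GFP replicate 1 and one at the uninduced mean in GFP replicate 2. HSPA5, the chaperone BiP, was at 1939 and 394 CPM with GFP and 375 and 374 CPM uninduced. SLC7A11, the cystine transporter subunit, was different, with 93.1 and 104 CPM with GFP and 45.5 and 48.4 CPM uninduced (log2 difference −1.07 ± 0.25, edgeR adjusted p = 0.256). NUPR1, a stress-induced nuclear protein, was at 50.2 and 56.5 CPM with GFP and 28.2 and 21.0 CPM uninduced. Constitutive DNp63 cells were above the uninduced mean for the list in both libraries (1.57 and 0.90), and induced cells were at −0.06 and 0.00. The ATF4 and p53 lists share SESN2, which was at 192 and 32.8 CPM with GFP and 49.7 and 49.4 CPM uninduced. The part of the state of GFP replicate 1 in the p53 and replication results was not tested, and both results kept their sign without that library.

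**Figure D4:**
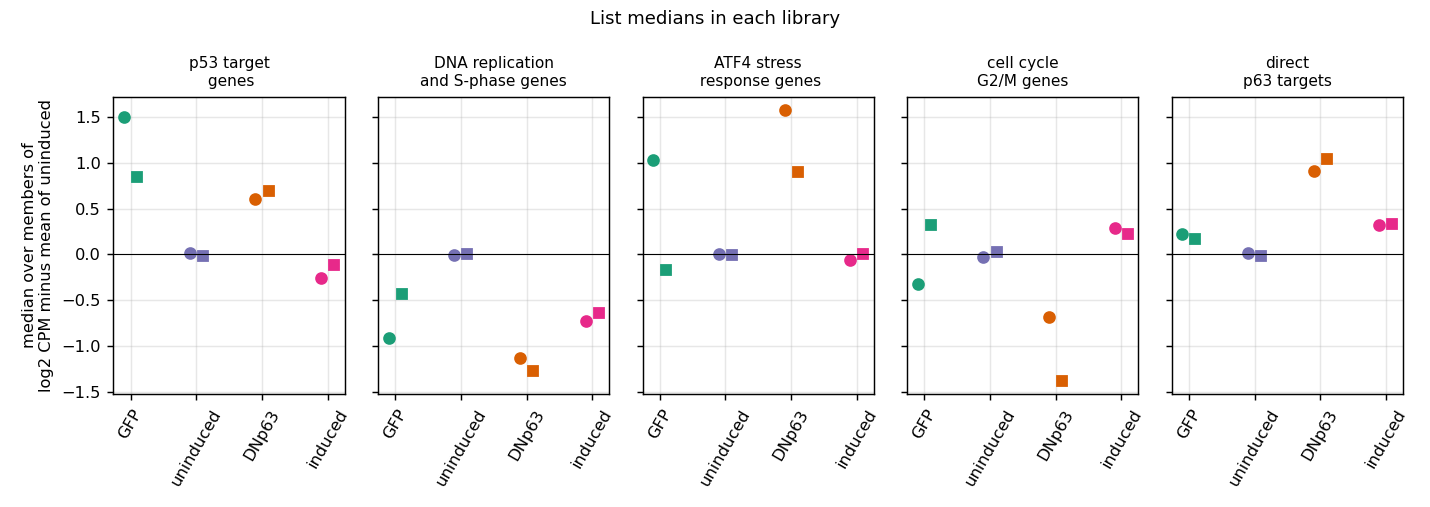
Median over list members of the log2 CPM minus the mean of the 2 uninduced libraries (vertical axis), for 5 gene lists, with 1 point per library (circles replicate 1, squares replicate 2). The 2 GFP libraries lie on 1 side of 0 for the p53, replication and p63 target lists, and on opposite sides for the ATF4 and G2/M lists.

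Immediate early genes, the fast targets of growth factor and stress signals, had 15 of 26 tested members (57.7%) below GFP in both libraries and 2 above, against 21.9% and 22.0% of all tested genes, with a median of −0.42. JUN is described above. KLF6, a zinc-finger factor, was at 20.3 and 22.0 CPM with GFP and 8.45 and 10.5 CPM uninduced (log2 difference −1.15, edgeR adjusted p = 0.254). FOS was at 0.369 and 13.8 CPM with GFP and 0.604 and 0.778 CPM uninduced, so its log2 difference of −3.36 came from GFP replicate 2 and turned to 0.90 without it. IRS2, an insulin receptor adaptor of the growth factor list, was at 35.8 and 39.4 CPM with GFP and 16.1 and 16.1 CPM uninduced.

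Cytosolic heat shock genes had 8 of 18 tested members (44.4%) above GFP and 1 below, against 22.0% and 21.9% of all tested genes, with a median of 0.26. Besides HSPA8, its partner DNAJA1 was at 183 and 265 CPM with GFP and 309.7 and 350.0 CPM uninduced. The stress-inducible members HSPA1A and HSPA1B, near-identical copies whose reads counting may split, had overlapping states. Neuronal and neuroendocrine markers had 8 of 17 (47.1%) above and 3 (17.6%) below, with a median of 0.39, and summed to 3337 and 3161 CPM with GFP and 3691 and 3770 CPM uninduced over the whole list. STMN1, a microtubule regulator, was at 190 and 137 CPM with GFP and 258 and 323 CPM uninduced (log2 difference 0.83, edgeR adjusted p = 0.285). MAPT, the microtubule protein tau, was at 6.65 and 4.45 CPM with GFP and 13.7 and 11.1 CPM uninduced. The 3 members below GFP were SNAP25, MAP2 and STX1A, named after their values were seen. SNAP25 was at 1.02 and 0.92 with GFP relative to the uninduced mean, on the log2 CPM scale. Neural progenitor and neural transcription factor genes, NES among them, had 5 of 18 (27.8%) above and 4 (22.2%) below, with a median of −0.07.

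Epithelial junction genes had 13 of 32 (40.6%) below and 3 (9.38%) above, with a median of −0.25. The lists of this paragraph and the next stand against 21.9% below and 22.0% above over all tested genes. KRT8, the main simple keratin, was at 2541 and 2390.0 CPM with GFP and 1922 and 1654 CPM uninduced (log2 difference −0.46, edgeR adjusted p = 0.439). ELF3, an epithelial transcription factor, was at 27.7 and 26.7 CPM with GFP and 11.9 and 10.3 CPM uninduced, a log2 difference of −1.30 ± 0.28 (adjusted p = 0.254). NOTCH1, the receptor, was at 64.3 and 68.4 CPM with GFP and 25.0 and 22.1 CPM uninduced (log2 difference −1.50, adjusted p = 0.273), within a Notch list of 6 (31.6%) below and 2 above of 19. WNT5A, a non-canonical Wnt ligand, was at 180 and 241 CPM with GFP and 108 and 115 CPM uninduced (adjusted p = 0.254), in a Wnt list with a median of −0.15. Mesenchymal markers had 6 of 13 (46.2%) below and 1 above with a median of −0.40, and antigen presentation genes 5 of 10 below and 1 above with a median of −0.38.

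Other lists with a median below 0 also held no called member. Hemidesmosome and basement membrane genes had 8 of 22 (36.4%) below and 1 above, with a median of −0.30, and LAMB1, a laminin chain, was at 296 and 265 CPM with GFP and 184 and 184 CPM uninduced (edgeR adjusted p = 0.321). Growth factor receptor genes had 9 of 25 (36.0%) below and 1 above, with a median of −0.25, and the receptor FGFR1 was at 2794 and 2574 CPM with GFP and 1642 and 1585 CPM uninduced (adjusted p = 0.591). TGF-beta and matrix response genes had 7 of 22 (31.8%) below and 3 above, with a median of −0.19. Both LAMB1 and FGFR1 were lower in each uninduced library than in each GFP library, without passing the test.

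Several lists had medians close to that of all tested genes, though not always the same shares without overlap (22.0% above and 21.9% below over all tested genes). Cytosolic ribosomal protein genes had a median of 0.02 over 53 tested members, with 18.9% above and 5.66% below. Nuclear respiratory chain genes had 0.03 over 44, with 31.8% above and 15.9% below. Cholesterol and fatty acid synthesis genes had a median of −0.11, with GFP replicates 1 and 2 at −0.36 and 0.33 around the uninduced mean. Of these genes, 12.1% were above and 18.2% below. Interferon-stimulated genes had 4 above and 5 below of 18, with a median of −0.10. Hypoxia and glycolysis genes had a median of −0.15, with 6.67% above and 26.7% below. Their member SLC2A1, the glucose transporter, was at 143 and 102 CPM with GFP and 76.3 and 63.9 CPM uninduced (edgeR adjusted p = 0.284).

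**Figure D5:**
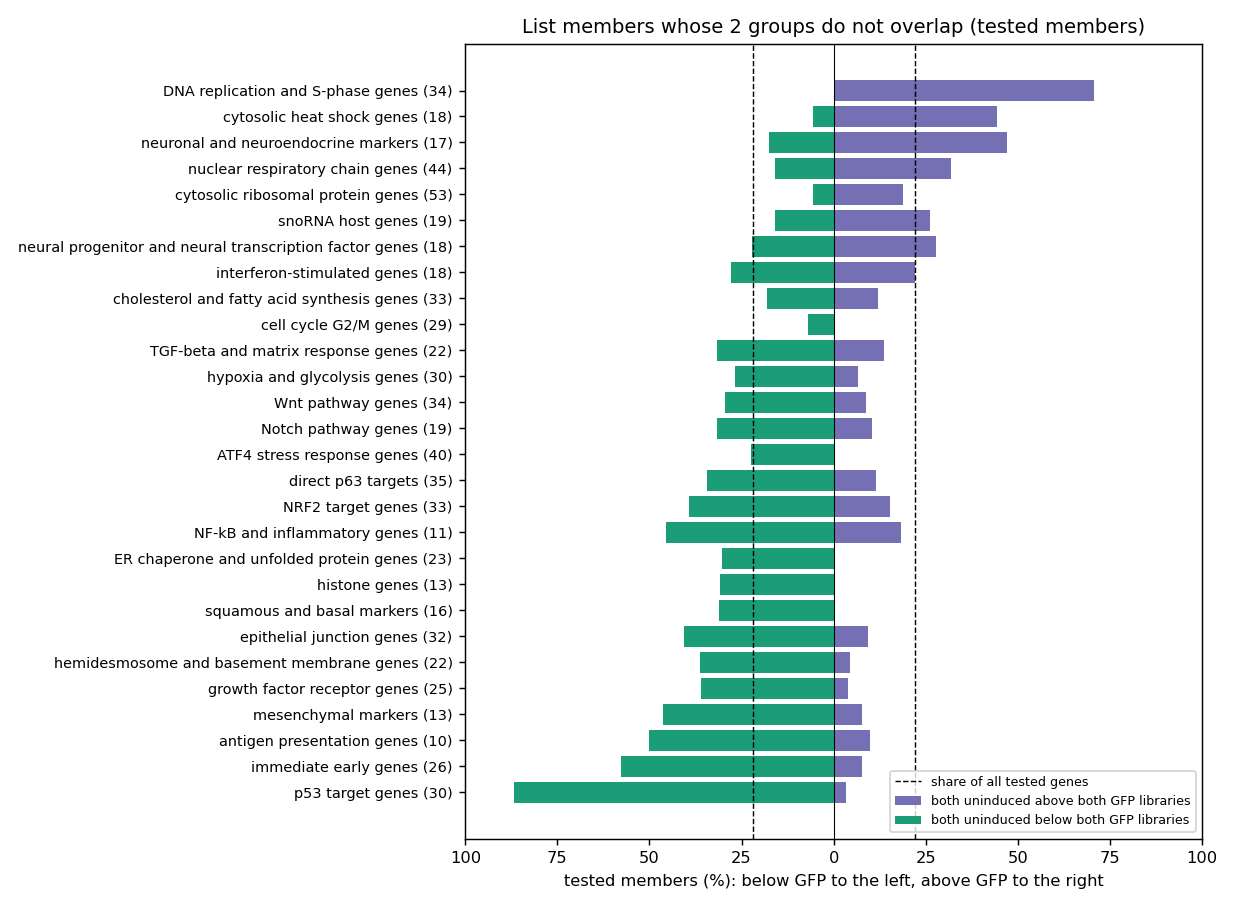
Share of tested members of each gene list (number in brackets) whose 2 uninduced libraries both lay above (right, violet) or both below (left, green) both GFP libraries; dashed lines are the shares of all tested genes, 22.0% and 21.9%. The p53 targets reach 86.7% on the left and the replication and S-phase genes 70.6% on the right.

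Genes detected in a single state were few. KCNN4, a calcium-activated potassium channel, had 6 and 14 counts with GFP and 0 and 0 uninduced, which with the uninduced group set to 3 counts makes it at least 13.7-fold lower. Its counts were 28 and 65 in constitutive DNp63 cells and 1 and 1 in induced cells. At 0 in both GFP libraries and 5 or more counts in both uninduced ones were 6 genes, among them CCKBR, the gastrin receptor, with 7 and 8 counts (at least 2.43-fold higher), and RSPO4, a Wnt agonist, with 5 and 10 counts (at least 2.43-fold higher). SNORD137, ZNF493 and C3orf36 were at least 2.76, 2.27 and 1.95-fold higher. These bounds cover counting error only.

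RNAs that carry no polyA tail, which a polyA selection should remove, were looked at as a sign of library preparation, with a list added after the data had been seen. They summed to 170.0 and 62.5 CPM with GFP, 31.6 and 28.1 CPM uninduced and 26.4 to 34.0 CPM in the other 4 libraries. RPPH1, the RNA of RNase P, was at 35.5 and 2.75 CPM with GFP and 0 and 0.486 CPM uninduced. All 5 tested members were lower in both uninduced libraries. Among them were HIST1H4C, HIST1H4H and HIST1H1C, the 3 histone genes with the smallest p in this comparison. Since the list was made after the data had been seen, the count of 5 is not read as a result about such RNAs. The histone list as a whole had 4 of 13 (30.8%) below and 0 above. Of all tested genes, 21.9% were below and 22.0% above. GFP replicate 1 was the highest of the 8 libraries here, and the part of this in the other differences was not tested.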

How the data were processed

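Per the labels' protocols, polyA-selected RNA was made into directional libraries and read from both ends on a NextSeq500. The deposited table holds raw counts. Per the submitters' processing notes the authors aligned reads with TopHat2 2.1 to hg19, counted with HTSeq and used SAMtools and DESeq2. Not given in the sources used here are the annotation, strand setting and filters, so antisense and overlapping genes are uncertain. The count table gives symbols without coordinates.

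Genes kept by filterByExpr (minimum count 10) were fitted with edgeR 4.0.16 (R 4.3.3): quasi-likelihood with legacy estimates, trimmed mean of M-values scaling, 4 group means and a spread shared by all 8 libraries. Tests were two-sided, Benjamini-Hochberg adjusted over the tested genes. CPM use scaled library sizes, and log2 CPM a prior count of 2. The tests were checked on simulated data. A list member is above or below GFP when the groups do not overlap.

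The comparison, lists and rule were chosen with earlier results of these data known. The rule named TP63, SOX2, POU3F2, NES and TP73, called genes, the 10 smallest p per direction at a mean of at least 5 CPM without overlap, the 3 smallest p of each list, and up to 5 genes per direction at 0 in 1 state. Mitochondrially encoded genes were not analysed here. Alternatives used other scalings, filters, DESeq2 1.42.0, limma 3.58.1 (voom), blocks and left-out libraries. Promoter letters are from RefSeq.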

Additional observations from a re-analysis of the deposited data

How the results depend on the processing

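With 2 libraries per state, counts of calls moved with the model. Of 109 named genes, 99 kept their sign in all alternatives but the added one. Most were named for a small p or for states that did not overlap in this comparison. A kept sign was therefore likely from the start and says little about other genes. The number called higher and lower, 0 and 1, was also 0 and 1 with RLE, upper-quartile or no scaling, edgeR version 4 estimates and voom. It was 68 and 177 without a filter on low counts, and 0 and 0 at a minimum count of 50. DESeq2 gave 13 and 44, the 4 control libraries only 0 and 0, and the vector number term 27 and 77. Without the filter the fit took each gene's spread from a common trend alone, so those calls are not comparable with the others. SNHG1, at 176 and 2.12 CPM in the GFP libraries, had an edgeR adjusted p of 4.70e-24 there. Leaving out 1 library gave 0 to 11 higher and 0 to 34 lower, with 11 and 34 without GFP replicate 2, 2 and 4 without GFP replicate 1, 9 and 19 without either DNp63 replicate, and 0 and 0 without any uninduced or induced replicate. Same-numbered GFP and uninduced libraries share only a number (correlation of deviations −0.09, against 0.22 for GFP and DNp63 libraries, which share a vector number). The replicate block called 1 higher and 1 lower over 8 libraries, and 0 and 0 over the 4 control libraries. The averaged inducible minus constitutive contrast, added after seeing the data, called 463 and 545. The log2 difference reversed without GFP replicate 2 for FOS (leave-one-out range −4.24 to 0.90), FOXA1 (−0.80 to 0.19), PLK1 (−0.71 to 0.035), POU3F2 (−1.22 to 0.31) and TAP1 (−3.60 to 0.57). It reversed without GFP replicate 1 for HERPUD1 (−2.15 to 0.16), KDR (−0.10 to 0.96), SNHG1 (−4.36 to 2.16) and TRIB3 (−3.00 to 0.14), and without uninduced replicate 2 for CD68 (−0.69 to 0.027). Beyond the left-out library, the cause was not tested. Of 30 lists, 16 had medians that moved by less than the SD of the 2 GFP libraries in all alternatives. That limit is wide where the GFP libraries differ. The ATF4 list met it although its median ran from −1.04 to 0.19. Depth limits genes below about 1.09 CPM in the shallowest library.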

Other observations

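SNHG1, a snoRNA host gene, separated libraries by vector number rather than by state. It was at 176 CPM in GFP replicate 1 and 179 CPM in constitutive DNp63 replicate 1, both with pLEX_306, and at 2.12 and 6.98 CPM in their pLEX_307 counterparts. It was at 4.23 and 13.8 CPM uninduced and 3.46 and 7.08 CPM in induced cells. With GFP and constitutive DNp63, pLEX_306 was always replicate 1 and pLEX_307 replicate 2, so vector and replicate cannot be told apart there. Metallothionein genes, which bind zinc, had 2 of 6 tested members (33.3%) above and 1 (16.7%) below GFP, against 22.0% and 21.9% of all tested genes. MT1X, the most abundant, was at 262 and 384 CPM with GFP, 544 and 482 CPM uninduced and 1027 and 1242 CPM induced (uninduced minus GFP log2 difference 0.67, edgeR adjusted p = 0.439).

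NRF2 target genes, which defend against oxidants, had 13 of 33 members (39.4%) below GFP and 5 (15.2%) above, with a median of −0.30. Of all tested genes, 21.9% were below and 22.0% above. OSGIN1, an oxidative stress response gene, was at 120 and 110 CPM with GFP and 60.4 and 47.2 CPM uninduced (edgeR adjusted p = 0.374), and TRIM16L was at 149 and 97.8 against 49.1 and 55.2 CPM. UBE2L6, which conjugates the ubiquitin-like protein ISG15, was one of the 4 interferon-stimulated genes above GFP, at 1.11 and 0.635 CPM with GFP and 4.43 and 3.60 CPM uninduced, a log2 difference of 2.24 ± 0.63 (adjusted p = 0.319).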
